A study of Mus musculus with 4 samples.

Results

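Integrins are the cell-surface receptors through which a fibroblast holds on to its matrix. Each receptor is a pair of an α chain and a β chain, and the pair decides the ligand. The α chains Itga1 and Itga11 join Itgb1 to bind collagens, Itga3, Itga6 and Itga7 join Itgb1 to bind laminins, Itga5 joins Itgb1 to bind fibronectin, and Itgav joins Itgb1, Itgb3 or Itgb5 to bind vitronectin and other ligands that carry the RGD motif. On the inside of the membrane the β tails recruit talin, kindlin and other adhesion proteins that link the receptor to actin.

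The 10 integrin subunits described here, 7 α and 3 β chains, were chosen by symbol, and all 14 gene probes whose accession maps to them were followed on every array. They were 10 of 36838 gene names and 14 of 55378 probes with a value on all arrays. Cells were NIH-3T3, an established mouse fibroblast line, grown to confluency in serum-supplemented DMEM. One culture had no treatment. The other cultures each received AR7, CA39 or CA77 at 20 µM for 24 h. These are small molecules developed as activators of chaperone-mediated autophagy, in which lysosomes take up single cytosolic proteins. The compounds were given in DMSO, and the label of the control names no vehicle. In a change shared by all treated cultures, vehicle and compound cannot be told apart.

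Total RNA of each culture was labeled with Cy3 and hybridized to 1 Agilent mouse array, so each group had 1 array (n = 1). No difference below has a replicate check, no test was possible and no p-value is given. The error that could be measured came from probes printed 10 times on each array. It gave a difference between any pair of arrays a tolerance of 0.16 on the log2 scale, which covers the error within arrays and not that between cultures. All arrays were on 1 slide. The control array was in row 1 of the slide and every treated array in row 2, and position and treatment cannot be told apart. CA77 alone was read in a separate, later scan. The share of probes well above background was 69.7% on the untreated array and between 52.2% and 61.6% on the treated arrays. Of 8 fibroblast markers, 7 were well above background on the untreated, AR7 and CA77 arrays and 8 on CA39, the exception being the receptor gene Pdgfrb.

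CA39 set the clearest pattern among the integrins. Itga7, the α chain of a laminin receptor best known from muscle, and Itgb5, the β chain of a vitronectin receptor, were both more than 3 times as bright with CA39 as without treatment. The 8 genes measured on both arrays with AR7 and the 10 measured with CA77 were within 2-fold of untreated. Itga11 and Itgb3 were not well above background with AR7. The laminin-binding Itga3 and Itga6, the fibronectin-binding Itga5 and Itgav differed by at most 0.18 (log2) with any compound by their brightest probe. The values are probe brightness per culture, and fewer cells of a kind and less RNA per cell cannot be told apart in such bulk samples.

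**Figure D1:**
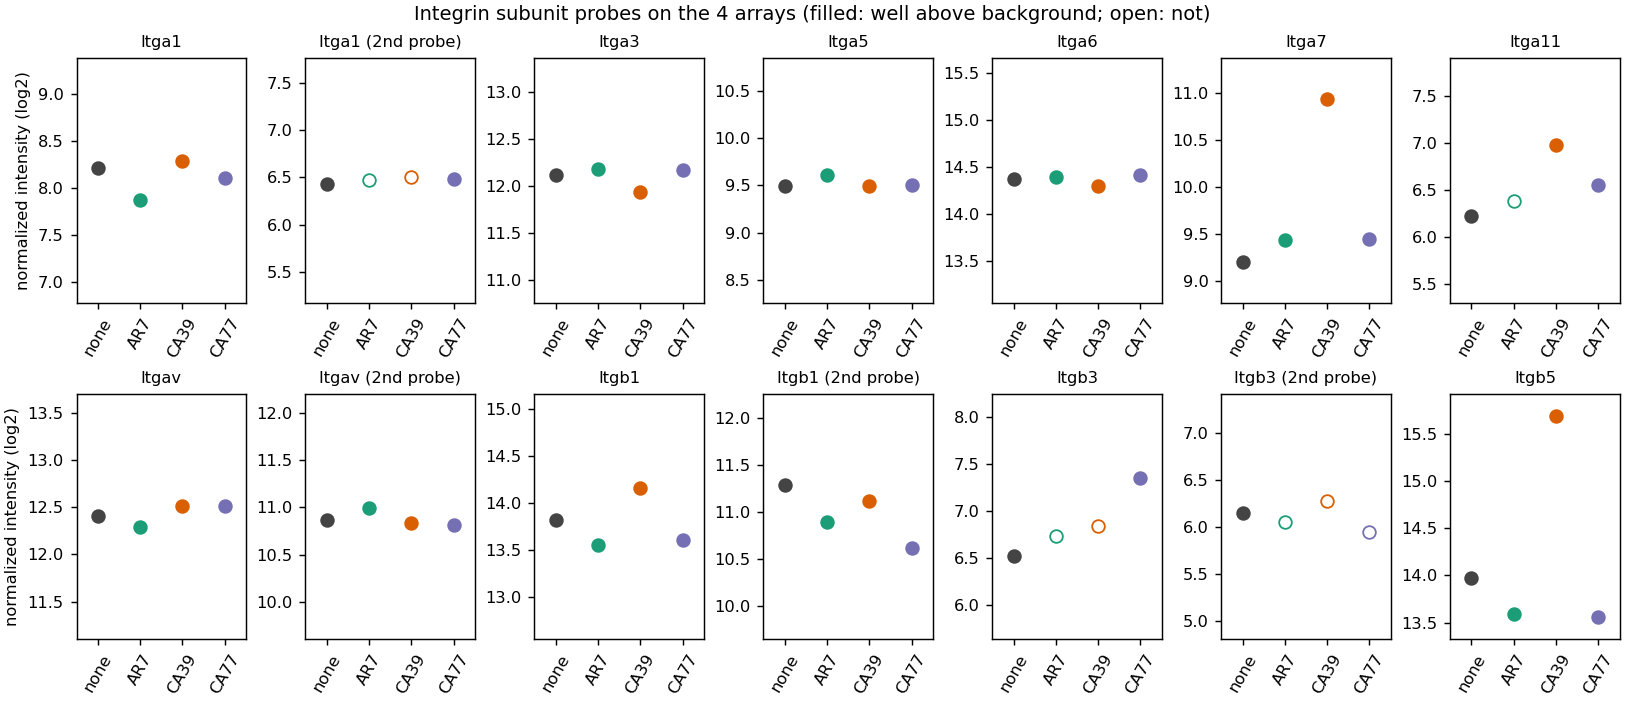
Normalized intensity (log2, vertical axis) of each of the 14 integrin probes on the untreated (none), AR7, CA39 and CA77 arrays, 1 point per array and no error bar because n = 1. Each panel spans the same range of 2.6 log2 units around its own values, so that changes can be compared and levels of different probes cannot. Itga7 and Itgb5 stand out on the CA39 array, at 10.93 and 15.69, and filled points were well above background.

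Itga7 was measured by 1 probe (A_55_P2040011), well above background on all arrays. Its normalized intensity (log2) was 9.21 in untreated cells, 9.44 with AR7, 10.93 with CA39 and 9.45 with CA77. Before normalization the net signal of the spot was 615 scanner units untreated, 757.5 (AR7), 2073 (CA39) and 641 (CA77). The CA39 array alone was high, and the other arrays lay within 0.24 of each other on the log2 scale. The difference from untreated was thus 1.72 with CA39, or 3.30-fold higher, against 0.23 with AR7 and 0.24 with CA77. The last pair are beyond the tolerance of 0.16 but under 1.5-fold, and over the alternatives that of CA77 ranged from 0.02 to 0.24, within the tolerance in 4 of 9.

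Itgb5, also measured by 1 probe (A_51_P327796), was well above background on all arrays. Its intensity was 13.98 (log2) untreated, 13.59 with AR7, 15.69 with CA39 and 13.56 with CA77. In scanner units the net signal was 16341, 12964, 53132 and 11033 in that order. CA39 was again the single high array, and here AR7 and CA77 lay under the control. The CA39 difference was 1.71, or 3.28-fold higher, and those of AR7 and CA77 were -0.39 and -0.41.

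Both genes were past 2-fold with CA39, 2 of the 10 members, while 3.86% of all 27894 gene names compared were past 2-fold higher with that compound. No member was past 2-fold lower, where the share of all names was 1.43%. With AR7 the count was 0 higher and 0 lower, against 2.0% and 1.07% of all names, and with CA77 it was also 0 and 0, against 2.47% and 0.747%. At the lower threshold of 1.5-fold, 3 members were higher with CA39, 1 with CA77 and 0 with AR7, against 6.93%, 4.26% and 3.28% of all names. Within the tolerance lay 6 members with AR7 and 5 each with CA39 and CA77, against 58.8%, 46.3% and 50.2% of all names, counting those set to 0 because their higher side was not measured. The members had a median difference of 0.00 (AR7), 0.09 (CA39) and 0.05 (CA77), beside medians over all names of -0.03, -0.02 and -0.04.

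Direct comparison of the compounds at the same dose and time gave the same genes. Between CA39 and AR7, Itga7 differed by 1.495 and Itgb5 by 2.10 (log2), and between CA39 and CA77 the values were 1.48 and 2.13. These were the only members past 2-fold in either comparison, in which 5.13% and 4.50% of all names were past 2-fold higher and 3.17% and 2.99% lower. CA77 and AR7 differed by 0.01 for Itga7 and -0.03 for Itgb5, both within the tolerance. In that comparison 0 of the 10 members was past 2-fold in either direction, against 2.53% of names higher and 1.78% lower with CA77. The 3 comparisons between compounds share arrays with each other and with those against untreated and are not independent.

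The position of a spot on the array was followed because more genes were higher with each compound in the upper part of the grid. The Itga7 spot lay in row 66 of 384. In rows 1 to 160, 5.48% of gene names were past 2-fold higher with CA39, and in the rows over 160 the share was 2.69%. The shares were 3.81% and 0.681% with AR7, and 4.74% and 0.807% with CA77. Around the Itga7 spot, the 11 measured spots within 2 positions differed by -0.38 to 0.78 with CA39, with a median of 0.01. Itgb5 lay in row 256, and its 14 measured neighbors ranged from -0.53 to 1.45 with a median of 0.01. Subtracting the median of the surrounding window left differences of 1.69 for Itga7 and 1.77 for Itgb5.

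**Figure D2:**
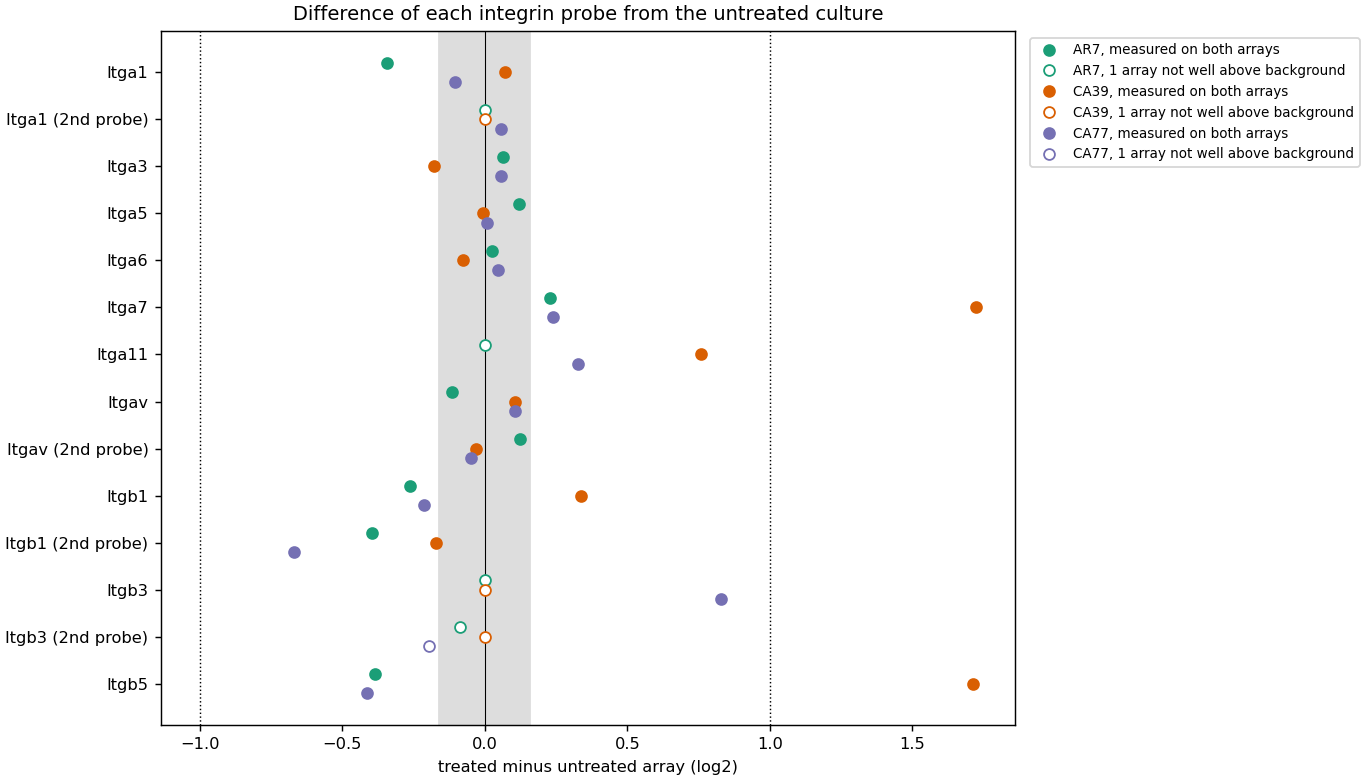
Difference of each treated array from the untreated array (log2, horizontal axis) for the 14 integrin probes, colored by compound. The gray band is the tolerance of 0.16 from repeat spots, dotted lines mark 2-fold, and open points had 1 of the 2 arrays not well above background, where a difference whose higher side was not measured was set to 0. Only the CA39 points of Itga7 (1.72) and Itgb5 (1.71) lie past a dotted line.

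Itga11, a collagen-binding chain, was the other member past 1.5-fold with CA39. Its intensity (log2) was 6.22 untreated, 6.38 with AR7, 6.98 with CA39 and 6.55 with CA77. This is a dim probe whose AR7 value was not well above background, so no AR7 difference is given. The CA39 difference was 0.76 and that of CA77 was 0.33. In scanner units the spot rose only from 96 to 148 above its local background with CA39, and its difference ranged from 0.50 to 1.20 over the processing alternatives.

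Itga1, the other collagen-binding chain, had a brighter probe at 8.21 (log2) untreated, 7.87 with AR7, 8.28 with CA39 and 8.11 with CA77. AR7 was the low array, at -0.34 from untreated, and the other differences (0.07 and -0.10) were within the tolerance. A second, dimmer Itga1 probe was not well above background with AR7 or CA39 and differed by 0.06 with CA77. The lower AR7 value therefore rests on 1 probe.

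The laminin-binding chains other than Itga7 had small differences. Itga3 read 12.11 untreated, 12.18 with AR7, 11.94 with CA39 and 12.17 with CA77 (log2). Its CA39 difference of -0.18 was just past the tolerance. Itga6 read 14.37, 14.39, 14.29 and 14.42 in the same order, with all 3 differences within the tolerance. Itga7 was thus the one of these 3 chains that differed by more than 0.18 with any compound.

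The fibronectin receptor chain Itga5 read 9.50 untreated, 9.62 (AR7), 9.49 (CA39) and 9.50 (CA77), and the differences of 0.12, -0.01 and 0.01 were all within the tolerance. Over the processing alternatives they reached 0.21 with AR7 and -0.17 with CA77. Itgav, the α partner of Itgb5, was measured by 2 probes. The brighter read 12.41, 12.29, 12.51 and 12.51, and the dimmer 10.87, 10.99, 10.83 and 10.82. The differences of both probes were within the tolerance with every compound, and the probes had opposite signs. On the array where Itgb5 was 3.28-fold higher, its α partner differed by 0.11, with a range of 0.04 to 0.26 over the alternatives, the highest past the tolerance after subtraction of the local median.

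Itgb1, the β chain shared by most of these receptors, was measured by 2 probes that did not give the same answer for CA39. The brighter read 13.82 untreated, 13.56 (AR7), 14.16 (CA39) and 13.61 (CA77). The dimmer read 11.29, 10.89, 11.11 and 10.62. With CA39 the differences were 0.34 and -0.17, opposite in sign, so no direction is given. With AR7 both probes were under untreated, at -0.26 and -0.40, as they were with CA77, at -0.22 and -0.67. CA39 lay above AR7 by 0.60 with the brighter probe and 0.22 with the dimmer, and above CA77 by 0.55 and 0.50.

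Itgb3, the platelet-type β chain that also pairs with Itgav, was near the detection limit. Its brighter probe read 6.53 untreated, 6.74 (AR7), 6.84 (CA39) and 7.36 (CA77), and was well above background on the untreated and CA77 arrays only. The CA77 difference was 0.83, or 1.78-fold higher. The second probe was well above background on the untreated array alone and did not show this, at 6.14 untreated and 5.95 with CA77. The CA77 value moved with the processing, between 0.32 for the mean of its probes and 1.27 for quantile-normalized values of the processed signal. Of 9 alternatives, 2 put it past 2-fold.

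**Figure D3:**
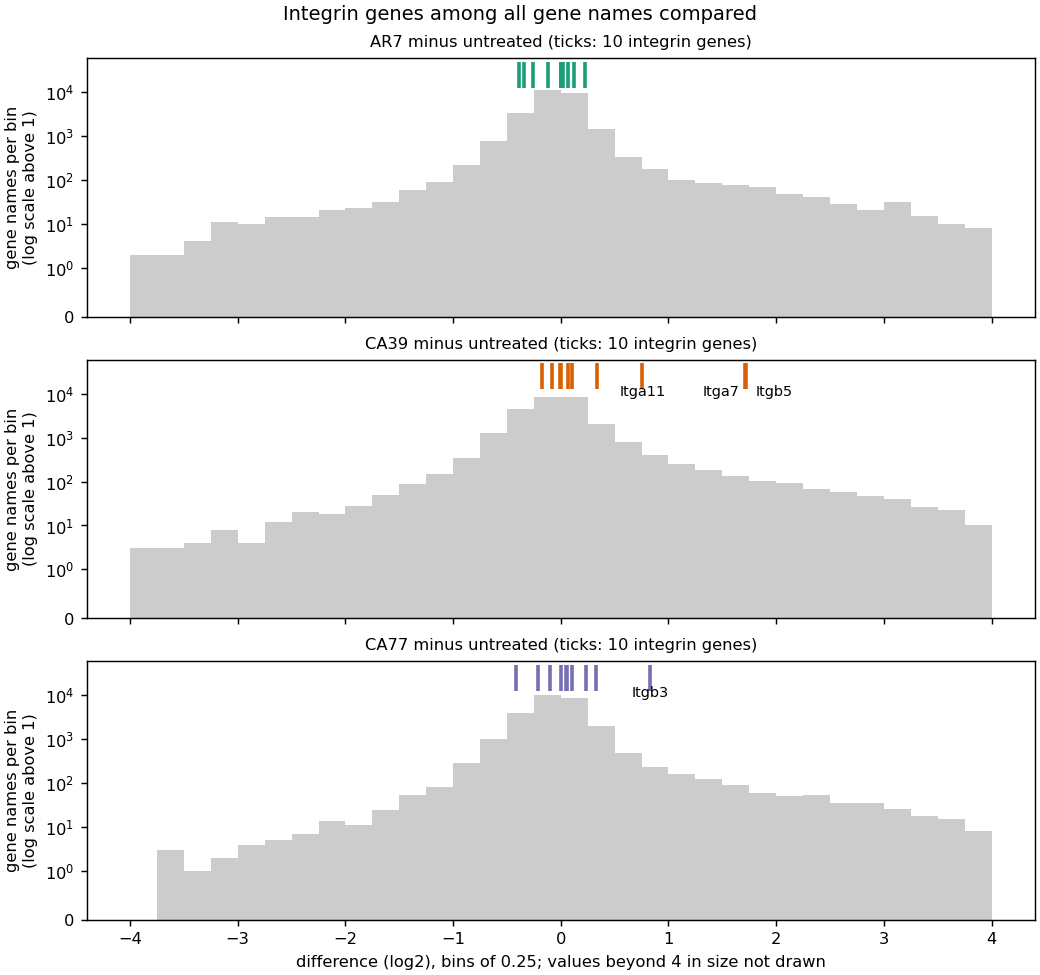
Number of gene names per bin of the difference from untreated (log2) for each compound, on a log scale above 1, with the 10 integrin genes as ticks. With CA39 the ticks of Itga7 and Itgb5 lie at 1.72 and 1.71 in the right tail and Itga11 at 0.76, and with AR7 the ticks lie between -0.39 and 0.23, those of Itga11 and Itgb3 set to 0.

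RefSeq promoter windows (build GRCm38.p6) were available for 7 of the 10 genes, and not for Itga6, Itga7 or Itgb3. Itga7, the member with the largest CA39 difference, is thus absent from the motif counts. The sequence directly before the start site was searched because the compounds were made against the retinoic acid receptor alpha. Shown 5′ to 3′ are the windows of Itgb5, past 2-fold with CA39, and of Itga11, next in size among genes with a window. That of Itga5, within the tolerance with every compound as reported, is also shown. Matches to the Sp1 motif GGGCGG or its reverse complement CCGCCC are in capitals. Itgb5 lies at chr16:33829415-33829664 (+), Itga11 at chr9:62677605-62677854 (+) and Itga5 at chr15:103366792-103367041 (-), each 250 bases long.
Itgb5: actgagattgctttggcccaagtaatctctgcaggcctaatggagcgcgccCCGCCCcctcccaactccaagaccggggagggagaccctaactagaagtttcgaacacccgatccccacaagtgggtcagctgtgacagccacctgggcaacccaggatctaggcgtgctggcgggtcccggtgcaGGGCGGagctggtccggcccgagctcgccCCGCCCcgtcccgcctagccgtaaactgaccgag
Itga11: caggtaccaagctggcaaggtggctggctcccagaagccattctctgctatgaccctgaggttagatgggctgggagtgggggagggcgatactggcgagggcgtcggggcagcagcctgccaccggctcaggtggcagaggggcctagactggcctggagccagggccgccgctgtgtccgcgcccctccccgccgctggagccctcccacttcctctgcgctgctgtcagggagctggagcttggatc
Itga5: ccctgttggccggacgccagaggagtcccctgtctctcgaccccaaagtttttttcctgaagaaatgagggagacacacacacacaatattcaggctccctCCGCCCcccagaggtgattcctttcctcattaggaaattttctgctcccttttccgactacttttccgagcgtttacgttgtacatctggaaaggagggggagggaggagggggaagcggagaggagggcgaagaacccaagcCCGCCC

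The Itgb5 window held 3 Sp1 matches and that of Itga5 held 2, while Itga11 held 0. The windows of Itga3, which differed by at most 0.18, held 1 and 3, and that of Itgb1 held 1, so that 5 of the 8 windows had a match. Of 32851 mouse windows of this length, 32.7% held at least 1. The retinoic acid receptor half-site AGGTCA, on either strand, was in 0 of the 8 windows of the 7 genes (Itga3 has 2), and in 14.02% of all windows. The AP-1 motif TGANTCA was in 0 of the 8 windows and in 6.75% of all, and the TATA box letters TATAAA in 0 and in 12.4%. The TEAD motif GGAATG was in 1, that of Itgb1, and in 12.6% of all windows. A match describes letters only, and the lack of one says nothing about a factor.

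Genes with the most similar profile to the integrins that moved were looked for among 13011 named genes measured on all arrays, by Euclidean distance over the 3 differences from untreated. Nearest to Itga7 were Maged2 (distance 0.13 log2 units), Gm10636 (0.15), Clmp, which encodes an adhesion molecule (0.16), Plekha4 (0.16) and the hyaluronidase gene Hyal1 (0.20). Nearest to Itgb5 were Acox2 (0.14), Emid1 (0.17), Nlrp2 (0.20), the guidance ligand gene Slit2 (0.24) and Gap43 (0.25). Itga7 and Itgb5 were 0.90 from each other, since the former lay over untreated with AR7 and CA77 and the latter under it.

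Of the 16 other mouse integrin subunits, 14 were on the array by name and 10 were well above background on at least 1 array. Itga2, Itga4, Itga9 and Itgb6 were at background on every array by the scanner's mark. With CA39, 1 of the 10 was past 2-fold higher and 2 were lower, against 3.86% and 1.43% of all names. The higher one was Itga8, an RGD-binding α chain, at 6.98 untreated and 8.60 with CA39, a difference of 1.63 (3.09-fold). On the AR7 and CA77 arrays Itga8 was not well above background, so that the count of 1 falls to 0 where detection on all 4 arrays is required.

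The subunits past 2-fold lower with CA39 were Itgb7 and Itgb2, β chains known from leukocytes. By their brightest probe the leukocyte α chains were mixed with CA39, with Itgax at -0.56, Itgad at a bound of -0.69, Itgal at 0.29 and Itgam at 0.24. The other Itgam probes went the other way with CA39, at -0.46 and -0.77, so no direction is given for Itgam. Itgb7 read 12.10 untreated, 13.35 with AR7, 9.81 with CA39 and 13.09 with CA77, so that it was lower with CA39 (-2.28) and higher with AR7 (1.25) and CA77 (0.99). Itgb2 read 11.32, 11.93, 9.90 and 11.33, a difference of -1.41 with CA39. Each was measured by 1 probe. Of the 5 leukocyte markers on the array, 0 were past 2-fold with any compound. This is near the shares of all names, which were at most 3.86% higher and 1.43% lower (both CA39). The number of these markers well above background was 5 untreated, 3 (AR7), 2 (CA39) and 4 (CA77). The share of all probes well above background was also highest on the untreated array. The summed level of the markers was 2577 (linear units) untreated, 2405 (AR7), 2542 (CA39) and 2073 (CA77). Its brightest parts were Cd3e and Lyz2, at 10.38 and 9.86 (log2) untreated. Itgad was past 2-fold lower with AR7 and CA77 only against the lowest detected signal, as a bound. When the 1st percentile served as the floor, its values were -0.07 and -0.64, and its CA39 bound of -0.69 became -0.02.

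Genes for the proteins at the integrin tails were read as a list. Of 37 adhesion complex genes 35 were compared, and 0 were past 2-fold with any compound, where 3.86% of all names were higher and 1.43% lower with CA39. Within the tolerance with CA39 lay 18 of the 35, and the median was 0.03. The largest CA39 differences were 0.79 for the zyxin relative Lpp, 0.63 for the tensin Tns2, 0.62 for vinculin (Vcl) and -0.75 for Git2. A second Vcl probe gave 0.71 and a second Lpp probe 0.43. Talin (Tln1), kindlin-2 (Fermt2) and the kinases Ilk and Ptk2 differed by 0.07, 0.23, 0.03 and -0.25 with CA39. List genes named here and below that were not past 2-fold were chosen after their values were seen. Of 26 integrin regulators and membrane partners, 0 were past 2-fold, the farthest being the GTPase gene Rap1b at -0.93 with CA39, against 0.43 with AR7 and 0.25 with CA77.

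Ligand genes were set beside the receptors by class. Of the 12 RGD-type and related ligands compared with CA39, 7 were past 2-fold higher and 0 lower, against 3.86% and 1.43% of all names, and the median was 1.41. Thbs1, the thrombospondin that Itgav receptors bind, differed by 3.70 (13.0-fold), and Thbs2 by 2.13. Fibrillin-1 (Fbn1) differed by 1.85, fibronectin (Fn1) by 1.47 and osteopontin (Spp1) by 1.35. Postn and Edil3, both ligands of Itgav pairs, were well above background with CA39 only, with lower bounds of 8.35 and 3.43. A floor at the 1st percentile moved these to 8.31 and 2.79. Postn and Edil3 entered the count of 7 and the median of 1.41 through the CA39 array alone. Where detection on all 4 arrays is required, the count falls to 5 of 10. The ligands that were not higher included Fbn2 (-0.63), Tgfb1 (-0.13) and Ltbp1 (-0.06). With AR7 and CA77, 0 of 10 ligands of this class were past 2-fold, which is near the shares of all names (2.0% higher and 1.07% lower with AR7, 2.47% and 0.747% with CA77), and the medians were -0.44 and -0.36.

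Collagen genes were read next. With CA39 all 9 were over untreated, 8 of them by more than the tolerance, and 2 were past 2-fold, Col5a2 (1.12) and Col1a1 (1.06). Of all names, 20.9% were above untreated by more than the tolerance with CA39 and 3.86% were past 2-fold higher. With AR7, 7 of the 9 were below untreated by more than the tolerance and Col1a1 was past 2-fold lower (-1.04), as were 1.07% of all names, and with CA77 6 were below it, against 26.2% and 30.4% of all names. The collagen calls lay near the threshold, and over the alternatives their number was 1 to 4 higher with CA39, 0 to 3 lower with AR7 and 0 to 4 lower with CA77, each highest number being that at 1.5-fold. The exceptions past the tolerance were Col4a2, at 0.24 with AR7, and Col5a2, at 0.27 with CA77. Laminins, the ligands of Itga7, were mixed. Lama2, the muscle-type laminin chain, differed by 1.56 with CA39 and by 1.59 with its second probe, Lamb1 by 0.74 and Lamc1 by -0.50. Lama1 was not well above background with CA39, and its bound of -1.42 became -0.75, under 2-fold, with the floor at the 1st percentile.

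**Figure D4:**
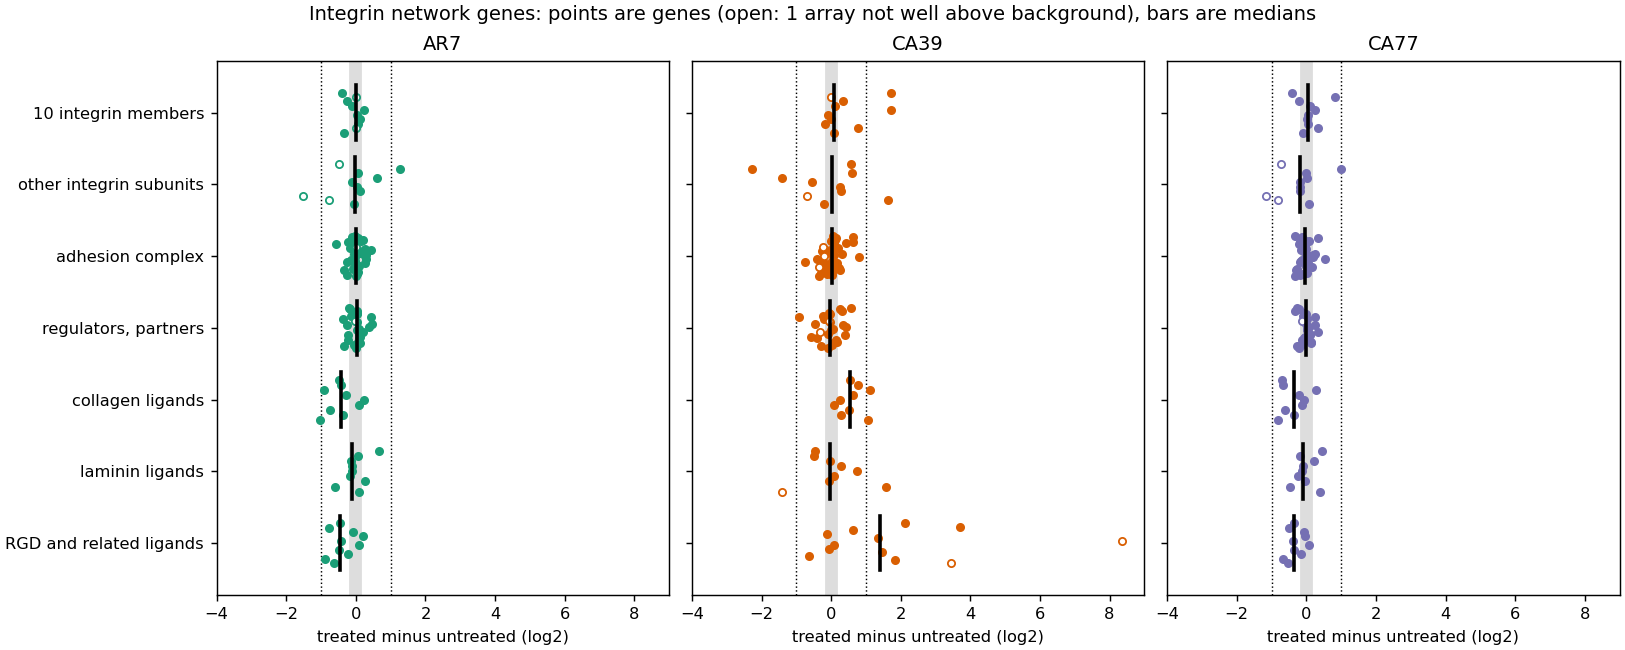
Difference from untreated (log2, horizontal axis) with AR7, CA39 and CA77 for the genes of each class (points) and the median of the class (bar). Open points had 1 array not well above background, the gray band is the tolerance of 0.16 and dotted lines mark 2-fold. With CA39 the RGD-type ligands have a median of 1.41, which includes Postn and Edil3, detected with CA39 only, and the adhesion complex one of 0.03.

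Fibroblast markers themselves differed with CA39. Of the 8, 3 were past 2-fold higher and 7 were above untreated by more than the tolerance, with a median of 0.54, against 3.86% and 20.9% of all names. S100a4 was the marker below untreated (-0.22). The growth factor receptor genes were among the 3, Pdgfra at 1.19 and Pdgfrb, detected with CA39 only, at a lower bound of 3.09, and Col1a1 was the other. Pdgfrb entered the counts and the median of 0.54 through the CA39 array alone. Among the 7 markers compared with every compound, Pdgfra and Col1a1 were the ones past 2-fold higher with CA39. The median over these 7 was -0.21 with AR7 and -0.28 with CA77.

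Markers of other cell types were read on the same arrays. Of 6 epithelial markers, Krt8 differed by 2.38 with CA39, Krt18 by 0.98, and Epcam was well above background with CA39 only. Krt14 differed by 0.32, and Cldn4, not well above background with CA39, had a bound of -0.33. Cdh1, the defining cadherin of epithelia, stayed at background on every array. The summed level of the 6 genes was 735 (linear units) untreated, 785 (AR7), 1877 (CA39) and 670 (CA77), and 3 or 4 of the 6 were well above background on each array. The epithelial integrin chain Itgb4 differed by 0.60 with CA39. The part of the fibroblast and epithelial markers in the CA39 differences of Itga7 and Itgb5 was not tested. Of 4 muscle markers and 5 endothelial markers compared, 0 were past 2-fold with CA39, near the 3.86% of all names that were higher and the 1.43% that were lower. The muscle genes differed in both directions with CA39, with Des at -0.82, Myh3 at 0.51 and Myod1 at 0.01. With AR7, 1 of the 5 endothelial markers was past 2-fold higher, Emcn (1.12), against 2.0% of all names, while Cdh5 was at 0.62, Pecam1 at -0.14, Kdr at -0.07 and Tek at a bound of -0.33, with a median of -0.07.

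**Figure D5:**
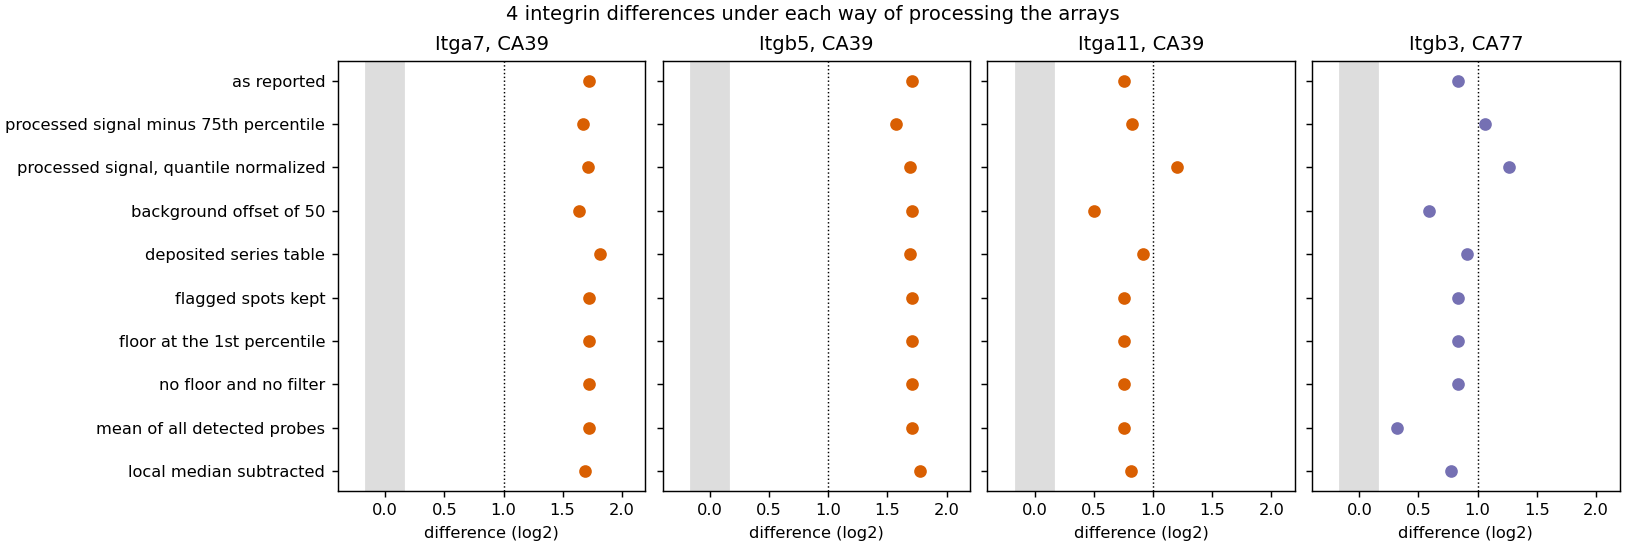
Difference from untreated (log2, horizontal axis) of Itga7, Itgb5 and Itga11 with CA39 and of Itgb3 with CA77, as reported and under each of 9 other ways of processing the arrays, with the tolerance in gray and 2-fold as a dotted line. Itga7 stays between 1.64 and 1.82 and Itgb5 between 1.58 and 1.77, while Itga11 spans 0.50 to 1.20 and Itgb3 spans 0.32 to 1.27.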

How the data were processed

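NIH-3T3 RNA was read on 4 one-color Agilent arrays, 1 per group. Spots were extracted by the authors (Feature Extraction 10.7.3.1), and their deposited scanner intensities are linear spot and local background medians with quality marks for 62976 spots per array, and the deposited series table held the background-subtracted intensity at all of them, without scaling. The methods name oligo and RMA; log2 RMA values were not used here. Following RMA as far as spots allow, background was removed by normexp with no offset (limma 3.58.1, R 4.3.3), followed by quantile normalization over gene spots and log2. Outlier spots were left out (142 to 328 per array), 0 were saturated, and spots of a probe were averaged. Detection needed the scanner's mark, well above background, on more than 50% of a probe's spots. A value not detected was raised to the lowest detected signal of its array unless it was higher, which makes the difference a bound, and where the higher side lacked detection the difference became 0. Accessions matched RefSeq (GRCm38.p6) for 27512 of 55378 probes. The array design cites an earlier build, so no gene coordinates are given apart from those of the RefSeq promoter windows. For a gene with several probes the one with the highest mean was used for counts. A call was a difference of at least 2-fold with detection on 1 of the 2 arrays. The calculation was tested on simulated data with known changes, in which every value counted as detected. That test did not cover the handling of values not detected. The number of arrays limits the precision. Members and lists were chosen with earlier results of these data known. Named genes were all members, genes of the pathway lists past 2-fold and measured on both arrays, other subunits by detection, and the nearest profiles. Marker genes and bounds were named after their values were seen. Alternatives covered background, scaling, floor, detection, probes per gene, position and threshold.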

Additional observations from a re-analysis of the deposited data

How the results depend on the processing

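The 2-fold differences of Itga7 and Itgb5 with CA39 kept their direction and stayed past 2-fold under all 9 alternatives, between 1.64 and 1.82 for Itga7 and between 1.58 and 1.77 for Itgb5. Among the 10 genes, the number past 2-fold higher with CA39 was 2 or 3 under the 11 alternatives, and the third was Itga11. With CA77 the number was 0 as reported and 1 with the processed signal minus the 75th percentile, 1 with the quantile-normalized processed signal and 1 at a threshold of 1.5-fold. This gene was Itgb3 in each case. The number lower was 0 with every compound and alternative. Of 270 recomputed differences from untreated, 253 stayed within 0.16 of the reported value, as did 225 of 261 between compounds and 27 of 27 medians of the 10 genes. In the deposited series table the median of all gene names with CA77 was -0.22, so that values with CA77 lie lower there by construction. Of 396 counts in the other lists, 351 stayed within 1.5 times the reported count. Signal over background limits Itga11, Itgb3 and the second probe of Itga1. The cause of the other changes was not tested. No paired analysis was possible because each group has 1 array.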
